A study of Mus musculus with 3 samples.

Results

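Müller glia with high transcript levels of Atf3, Maff and Egr2 were described in single-cell RNA sequencing of sorted mouse retinal cells. The cells were chosen by their own counts: the summed unique molecular identifiers (UMIs, each standing for 1 captured transcript) of Atf3, Maff and Egr2 made up at least 12 per 10,000 of the cell's total, with Igfbp2 under 2, Ccl2 under 10 and C1qa, C1qb and C1qc together under 2 per 10,000. Of 24695 cells, 2720 met the rule. They were compared within each run with 9624 cells whose summed Atf3, Maff and Egr2 stayed under 2 per 10,000 under the same other limits, called Atf3/Maff/Egr2-low cells here. A further 4270 cells lay between the limits. The values of these genes chose the cells, so their levels are a description with no test.

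All cells came from adult mice of a single genotype. The mice carried Glast-CreERT+/tg, Yap5SA+/tg and ROSA26R-tdTomato+/tg, received tamoxifen and then an injection of NMDA, and tdTomato+ cells were sorted 2 days after NMDA and loaded on the 10X platform in 3 runs. Yap5SA is a form of the co-activator YAP with its inhibitory phosphorylation sites mutated, and NMDA is a glutamate receptor agonist that kills inner retinal neurons. The Glast promoter, which drives the tamoxifen-dependent Cre, is active in Müller glia and also in retinal astrocytes. Every run shared the genotype, the tamoxifen, the injury and the sort, so no sample without Yap5SA or without NMDA entered a comparison. The runs are not stated to be separate animals. The p-values measure how the difference between classes of the same run varies across runs, and that variation may be technical.

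Müller glia span the retina, recycle glutamate and retinoids for the neurons around them, and respond to injury within hours. Immediate early genes are transcribed without new protein synthesis when a cell meets growth factors, calcium, cytokines or stress. ATF3 is a stress-induced factor of the ATF/CREB family, MAFF is a small MAF protein that lacks a transactivation domain and pairs with other bZIP factors, and EGR2 is a zinc-finger factor of the early growth response family. NR4A1 is an orphan nuclear receptor, ARC is a neuronal activity protein of the synapse, and DUSP5 is a nuclear phosphatase of ERK. The last 3 were named together with the rule's genes as marks of these cells and are likewise given as levels with no test.

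The 3 genes of the rule lie at chromosome 1, 191170296 to 191218039 (Atf3), chromosome 15, 79346621 to 79359076 (Maff) and chromosome 10, 67535475 to 67542188 (Egr2) of mm10. Promoter windows of 300 bases, from 250 before to 50 after a transcription start, were taken from RefSeq (GRCm38.p6) for 5 of the 6 genes; Arc had no entry. They are shown because these genes are the ones that define the cells. Capitals mark matches on either strand to the cAMP response element (CRE, TGACGTCA), its shorter core, called the short CRE here (TGACG), the AP-1 site (TGANTCA), the serum response element core known as the CArG box, and the EGR site (GCGNGGGCG), and a full CRE also holds a short CRE on each strand. Maff had 3 windows and Egr2 had 5, and the one shown for each was picked after the matches were seen. The windows are Atf3 chr1:191183284-191183583 (minus strand), Maff chr15:79347270-79347569, Egr2 chr10:67537619-67537918, Nr4a1 chr15:101266596-101266895 and Dusp5 chr19:53528895-53529194 (plus strand).
Atf3: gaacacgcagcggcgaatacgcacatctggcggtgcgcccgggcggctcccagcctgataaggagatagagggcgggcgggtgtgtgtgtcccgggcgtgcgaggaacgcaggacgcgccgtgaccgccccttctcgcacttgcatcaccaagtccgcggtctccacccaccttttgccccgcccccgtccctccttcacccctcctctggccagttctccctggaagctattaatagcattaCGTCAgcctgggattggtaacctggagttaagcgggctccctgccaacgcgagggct
Maff: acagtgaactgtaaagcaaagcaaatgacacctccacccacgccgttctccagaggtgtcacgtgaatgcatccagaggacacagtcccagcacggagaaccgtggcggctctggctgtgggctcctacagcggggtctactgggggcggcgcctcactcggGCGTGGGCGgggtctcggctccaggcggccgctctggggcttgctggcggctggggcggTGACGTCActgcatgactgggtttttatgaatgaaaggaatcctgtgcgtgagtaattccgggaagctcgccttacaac
Egr2: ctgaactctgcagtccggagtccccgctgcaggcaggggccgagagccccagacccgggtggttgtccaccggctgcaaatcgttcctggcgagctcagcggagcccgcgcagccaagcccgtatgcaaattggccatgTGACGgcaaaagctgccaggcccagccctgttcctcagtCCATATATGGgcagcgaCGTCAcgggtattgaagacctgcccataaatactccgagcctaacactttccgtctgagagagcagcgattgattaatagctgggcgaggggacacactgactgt
Nr4a1: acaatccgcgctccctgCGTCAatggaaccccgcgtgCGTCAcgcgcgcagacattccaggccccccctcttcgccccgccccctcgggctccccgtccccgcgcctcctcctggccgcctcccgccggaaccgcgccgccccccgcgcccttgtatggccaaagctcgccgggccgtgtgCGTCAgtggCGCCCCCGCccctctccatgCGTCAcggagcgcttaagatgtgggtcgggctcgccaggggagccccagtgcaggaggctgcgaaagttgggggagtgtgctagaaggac
Dusp5: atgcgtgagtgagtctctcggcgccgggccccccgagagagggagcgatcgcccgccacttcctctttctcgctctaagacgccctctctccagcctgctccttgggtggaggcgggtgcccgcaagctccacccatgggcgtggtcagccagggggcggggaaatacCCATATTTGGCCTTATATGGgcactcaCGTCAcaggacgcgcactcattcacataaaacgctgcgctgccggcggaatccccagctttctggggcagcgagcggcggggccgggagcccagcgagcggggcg

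The Atf3 window held 1 short CRE, just upstream of the start. The Maff window held a full CRE and an EGR site, the Egr2 window a CArG box and 2 short CREs, the Nr4a1 window 4 short CREs and an EGR site, and the Dusp5 window 2 adjoining CArG boxes and 1 short CRE. Of all 32851 promoter windows, 1.79% held a CRE, 20.8% a short CRE, 7.81% an AP-1 site, 1.63% a CArG box and 5.55% an EGR site. Counted by gene, 5 of the 5 genes with a window had a short CRE in any of them, against 35.6% of the tested genes with a window. A CArG box was in 2 of 5, against 1.58%, and an EGR site in 2 of 5, against 12.4%. A full CRE was in 1 of 5, against 3.79%, and an AP-1 site in 0 of 5, against 6.1%. Of 249 genes with a window called higher in members by a log2 of 1 or more, 34.1% had a short CRE and 2.41% a CArG box. An EGR site was in 13.3% of the 249, an AP-1 site in 10.4% and a full CRE in 6.02%. No difference in these shares was tested. These are matches of letters in windows of unequal number per gene.

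The share of cells that met the rule differed widely between the runs. In run 1, 81 of 7670 cells met it, or 1.06% (95% Wilson interval 0.851 to 1.31%). In run 2, 416 of 8802 cells did, or 4.73% (4.30 to 5.19%). In run 3, 2223 of 8223 cells did, or 27.0% (26.1 to 28.0%). The intervals cover counting error only, and none overlaps another. Run 3 supplied 81.7% of the members, and the mean over the runs was 10.9% ± 14.1 (SD, n = 3). The runs carry the same labels, so this spread lies between nominal replicates.

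**Figure D1:**
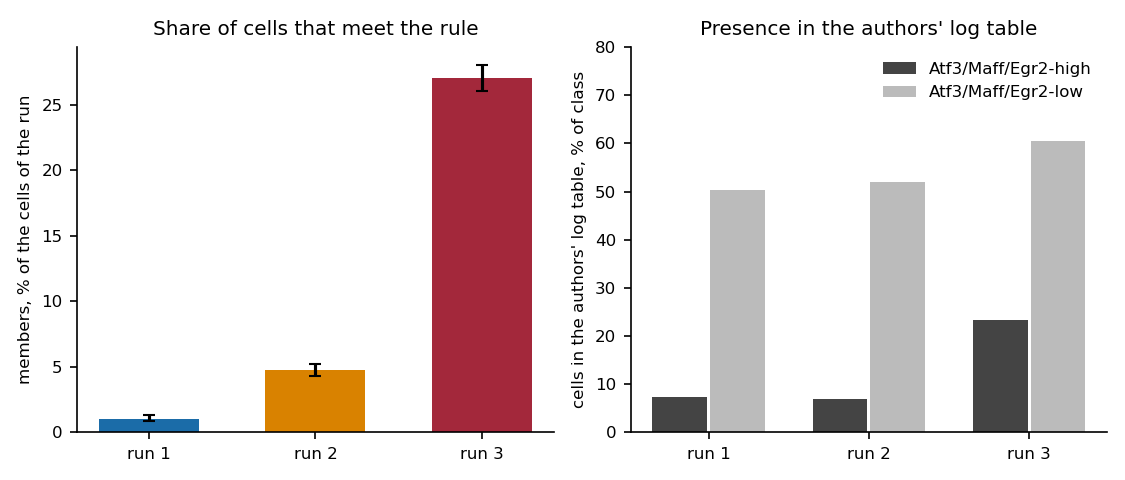
Left, share of each run's cells (percent) that met the rule, by run, with 95% Wilson intervals as error bars. Right, percent of the members (dark bars) and of Atf3/Maff/Egr2-low cells (light bars) of each run that are in the authors' log table. Run 3, at 27.0%, stands far above run 2, at 4.73%, and run 1, at 1.06%, and in each run a smaller part of the members than of the low cells is in the log table.

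Members had a median of 7958, 9140 and 8415 UMIs in runs 1, 2 and 3, against 8864, 10096 and 8388 in Atf3/Maff/Egr2-low cells. Thinning every cell to 3500 UMIs left shares of 0.952%, 4.31% and 24.2%. The largest member had 26274 UMIs and the largest low cell 40763. No doublet caller was run. Runs shared 83 to 108 cell barcodes by pair, and 1 barcode was shared by members of 2 runs. In members, the median mitochondrial share was 6.43%, 5.81% and 6.48%, against 5.11%, 4.93% and 5.46% in low cells. The authors' deposited table of log values held 7.41%, 6.97% and 23.3% of the members of runs 1, 2 and 3, against 50.3%, 51.9% and 60.4% of the low cells. How those cells were chosen is not given in the sources used here.

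Within the members, Maff gave 48.4%, Atf3 39.2% and Egr2 12.4% of the UMIs of the 3 genes. UMIs of all 3 genes were present in 2034 members (74.8%), of 2 genes in 633 and of 1 gene in 53. All 3 genes together were seen in 54.3% of members in run 1, 59.4% in run 2 and 78.4% in run 3. The summed level had a median of 17.7, 19.3 and 24.3 per 10,000 in the 3 runs, so the members of run 3 were also further above the limit. Single cells differed in which gene carried them over it. In run 3, the 10th percentile, median and 90th percentile of Atf3 were 2.28, 9.20 and 19.3 per 10,000, and those of Maff were 2.76, 11.5 and 25.3. After thinning, Spearman's rho of Atf3 and Maff over members was -0.26, -0.21 and -0.07 in the 3 runs, values that share the limit on the genes' sum and each cell's depth.

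Summed over cells, Atf3 stood at 865, 1065 and 989 UMIs in 1000000 (counts per 1000000, CPM) in members of runs 1, 2 and 3 and at 13.2, 27.0 and 24.9 in low cells. Maff stood at 1020, 963 and 1294 CPM against 13.9, 16.4 and 20.9. Egr2 stood at 186, 155 and 354 CPM against 10.4, 14.3 and 17.4. These differences follow from the rule.

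The 3 genes that the rule did not use were high in the same cells. Nr4a1 was at 283, 272 and 415 CPM in members of runs 1, 2 and 3, against 30.9, 43.7 and 69.2 in low cells. Arc was at 157, 224 and 259 CPM against 27.5, 52.9 and 60.8. Dusp5 was at 234, 259 and 458 CPM against 28.7, 47.9 and 62.4. Within every run each of the 3 was higher in members, and the lowest member run lay above the highest low run. Such a lack of overlap, in either direction, held for 35.7% of the genes tested. The 3 were named together with the rule as marks of these cells, so their levels are a description only. The fitted log2 differences were 2.85 for Nr4a1, 2.27 for Arc and 2.84 for Dusp5. In single cells these transcripts were sparse. The median member of run 1 had no Arc UMI, and that of run 3 had 1.43 per 10,000.

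Just outside the limit, 359 cells with a sum from 10 to 12 per 10,000, pooled over the runs, had 497 CPM of Atf3, 437 of Maff and 165 of Egr2. Just inside, 290 cells from 12 to 14 per 10,000, pooled likewise, had 646, 463 and 190 CPM. Of the marks that the rule did not use, Nr4a1 was 246 CPM outside and 250 inside, Arc 167 and 211, and Dusp5 239 and 276. Cells on either side of the limit thus lay close together in these genes.

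Across 6 ranges of the summed level (under 2, 2 to 5, 5 to 8, 8 to 12, 12 to 20, and 20 or more per 10,000), Nr4a1 and Dusp5 climbed at each step in every run. In run 3, Nr4a1 went through 69.2, 125, 203, 273, 326 and 465 CPM. Arc climbed at each step in runs 2 and 3, and in run 1 it ended with 171 and then 135 CPM. Junb, a partner of FOS in AP-1, went in run 3 from 1105 through 1566, 2207, 2546 and 2890 to 3417 CPM. Rlbp1, the retinoid-binding protein of Müller glia, went the other way, from 2092 through 1647, 1402, 1293 and 1191 to 1121 CPM in run 3. Its decline in run 2 was broken by one step, from 1112 to 1165 CPM.

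**Figure D2:**
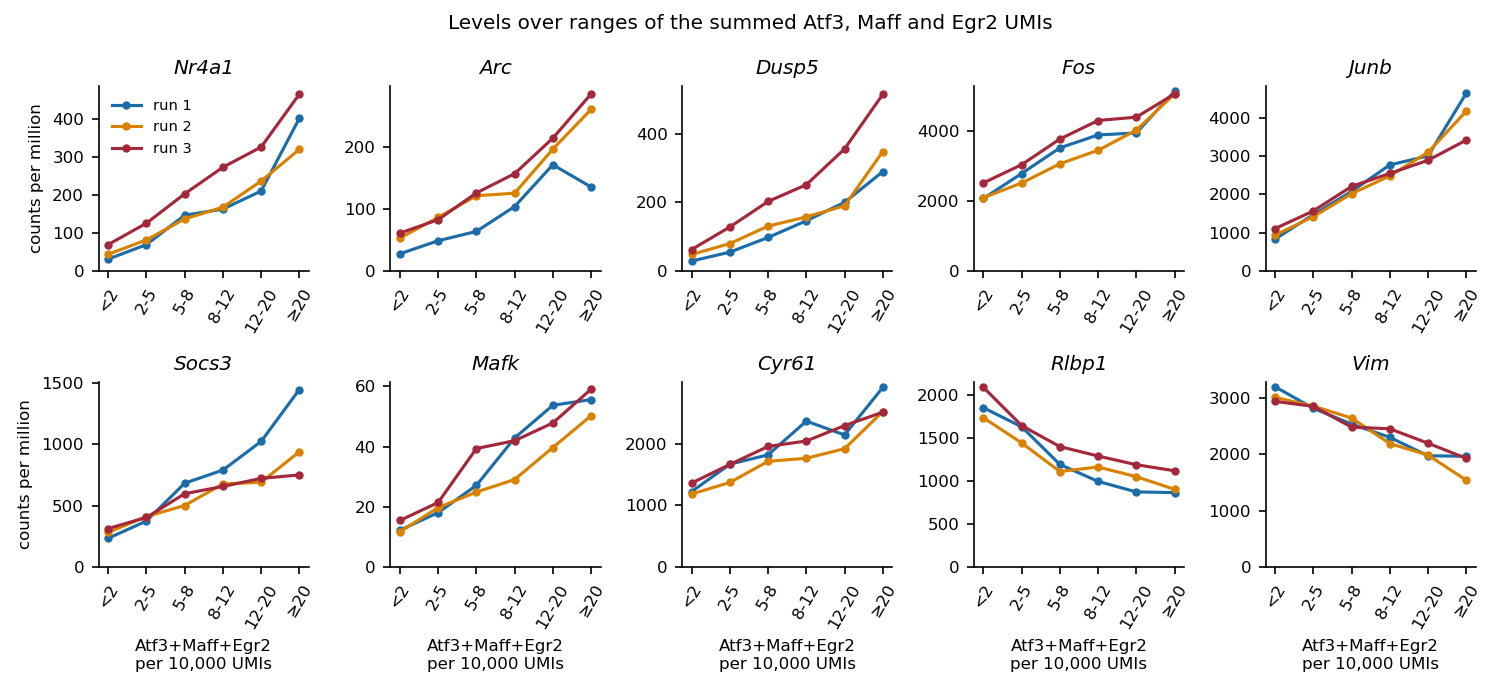
CPM (y axes, linear from 0, 1 panel per gene) of 10 genes in 6 ranges of summed Atf3, Maff and Egr2 per 10,000 UMIs (x axis), with 1 line per run. Nr4a1 and Dusp5 climb at each step, for example from 69.2 to 465 CPM for Nr4a1 in run 3, and Rlbp1 declines from 2092 to 1121 CPM in that run.

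The Müller glia name was checked against markers. The summed level of 12 Müller markers was 26728, 27389 and 27376 CPM in members and 39926, 35975 and 39648 in low cells, so the members carried the set at a lower level, with all 12 at 50 CPM or more in each run. Glul, which makes glutamine from glutamate, stood at 2301, 2095 and 1526 CPM in members and at 2406, 1789 and 1906 in low cells, and the groups overlap. Microglial markers summed to 6.1, 4.6 and 3.8 CPM in members. Their C1q genes were limited by the rule. Bipolar cell markers summed to 129, 112 and 117 CPM against 114, 103 and 109. Amacrine and horizontal cell markers summed to at most 2.67 CPM in members. Astrocyte markers summed to 1461, 1053 and 798 CPM against 1182, 925 and 828, and Pax2, the defining astrocyte factor, was at 0 in members of runs 1 and 3 and in low cells of run 3. Photoreceptor markers were higher in members. The 9 rod markers summed to 3962, 2636 and 2211 CPM against 1823, 1480 and 1265, and the 6 cone markers to 275, 178 and 184 against 79.4, 69.3 and 64.7. Opn1sw was at 0 in members of run 1. The 7 ganglion cell markers summed to 71.1, 65.2 and 58.7 CPM against 46.6, 44.0 and 46.9, with Pou4f1 and Slc17a6 at 0 in members of all runs and Slc17a6 also at 0 in low cells of runs 2 and 3.

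**Figure D3:**
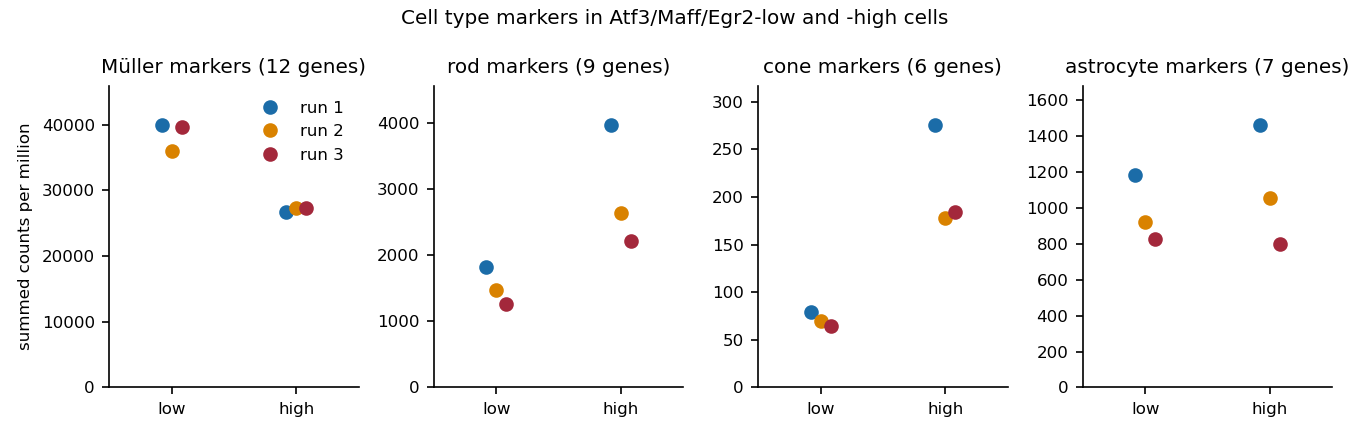
Summed CPM (y axes, linear from 0, each panel with its own scale) of Müller, rod, cone and astrocyte markers in Atf3/Maff/Egr2-low cells (low) and members (high), with 1 point per run. Müller markers lie at 26728 to 27389 CPM in members and 35975 to 39926 in low cells, and rod markers lie at 2211 to 3962 CPM in members and 1265 to 1823 in low cells.

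Gene by gene, 13217 genes were tested between members and low cells within runs. Of these, 1562 (11.8%) were higher and 1712 (13.0%) lower in members at an adjusted p under 0.05, 24.8% in all, and the median log2 difference over all genes tested was 0.02. These shares are the background for every list count in the comparison with low cells. A log2 difference of 1 or more was fitted for 343 called genes, and of -1 or less for 117. Leaving out run 2 gave 962 higher genes and leaving out run 3 gave 837 higher and 1087 lower. Without the run as a block, 798 were higher and 1101 lower. Where the rule was applied to a random part of each cell's UMIs and the levels read from the rest, 1063 were higher and 1251 lower.

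Rod transcripts moved with membership. The median member had 27.9, 21.3 and 16.3 rod transcripts per 10,000 in runs 1, 2 and 3, and the median low cell 5.08, 9.67 and 7.30. All 9 rod markers and 5 of the 6 cone markers were higher in members, with medians of 1.00 and 1.53 on the log2 scale. These medians were 0.24 and 0.91 in the cells of the authors' log table and 0.54 and 0.48 with Egr2 alone as the rule. Restricting both classes to cells with under 10 rod transcripts per 10,000 kept 24, 107 and 772 members and 2501, 1812 and 1073 low cells. There, 699 genes were higher and 852 lower, and the cone median was 1.55. The rod median was 0.27, a value that the limit on the same 9 rod markers holds down by construction. The log2 differences of Nr4a1, Arc and Dusp5 were 2.89, 2.37 and 2.77 in these cells, and the median of immediate early factors was 1.38. The part of photoreceptor RNA in the other results was not tested.

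Immediate early transcription factors rose as a group beyond the genes of the rule. Of 24 tested, 22 were higher, 1 was lower and 1 did not pass. Their median log2 difference was 1.46. Under the alternatives this median ran from 0.96 with Egr2 alone as the rule to 1.62 without run 3. It was 1.01 in the cells of the authors' log table and 1.14 with Atf3 alone. Csrnp1, a nuclear protein first known as induced by AXIN, had the largest rise of the genes named by rule: it stood at 157, 187 and 225 CPM in members of runs 1, 2 and 3 and at 11.2, 16.4 and 21.9 in low cells (log2 3.61 ± 0.09 SE, adjusted p = 7.73e-11). The runs of the classes did not overlap. Fosb, an AP-1 subunit, was at 844, 766 and 907 CPM against 162, 173 and 224 (log2 2.25, adjusted p = 4.97e-10). Fosl2, another subunit, was at 45.4, 49.6 and 73.6 CPM against 12.9, 13.9 and 13.8 (log2 2.19).

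The most heavily counted AP-1 genes rose by less. Fos was already at 2075, 2097 and 2522 CPM in low cells and stood at 4408, 4483 and 4830 in members (log2 1.12, adjusted p = 1.03e-08). Jun rose by 1.31, Junb by 1.94 and Egr1, a relative of Egr2, by 1.75 on the log2 scale. Fos was thus abundant in both classes. Nr4a3 (3.23), Srf (2.03), Fosl1 (2.06) and Klf2 (1.73) rose as well. Despite its size, the Nr4a3 difference missed a limit on adjusted p, level or run direction used to name the largest rises. Maf, a large MAF factor, fell by 0.35, and Crem, a CREB relative, was at 0.15 and did not pass.

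Most genes of a further list of early response genes were higher as well. Of 31 other early response genes tested, 26 were higher, 1 was lower and 4 did not pass, with a median of 0.91. Btg2, an antiproliferative regulator of mRNA decay, stood at 2894, 2966 and 2475 CPM in members and 806, 891 and 917 in low cells (log2 1.75). Zfp36, which destabilises AU-rich cytokine mRNAs, rose by 1.96, Pim1, a survival kinase, by 1.99 and the clock gene Per1 by 1.88. Rgs2, a regulator of G protein signalling, fell by 0.79. Ifrd1, a transcriptional co-regulator induced by growth factors and injury, was at 437, 405 and 596 CPM against 67.1, 60.3 and 84.4 (log2 2.85, adjusted p = 7.73e-11). Cstf3, a subunit of the cleavage stimulation factor of mRNA 3′ ends, was at 135, 200 and 198 CPM against 27.4, 26.1 and 29.1 (log2 2.82).

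**Figure D4:**
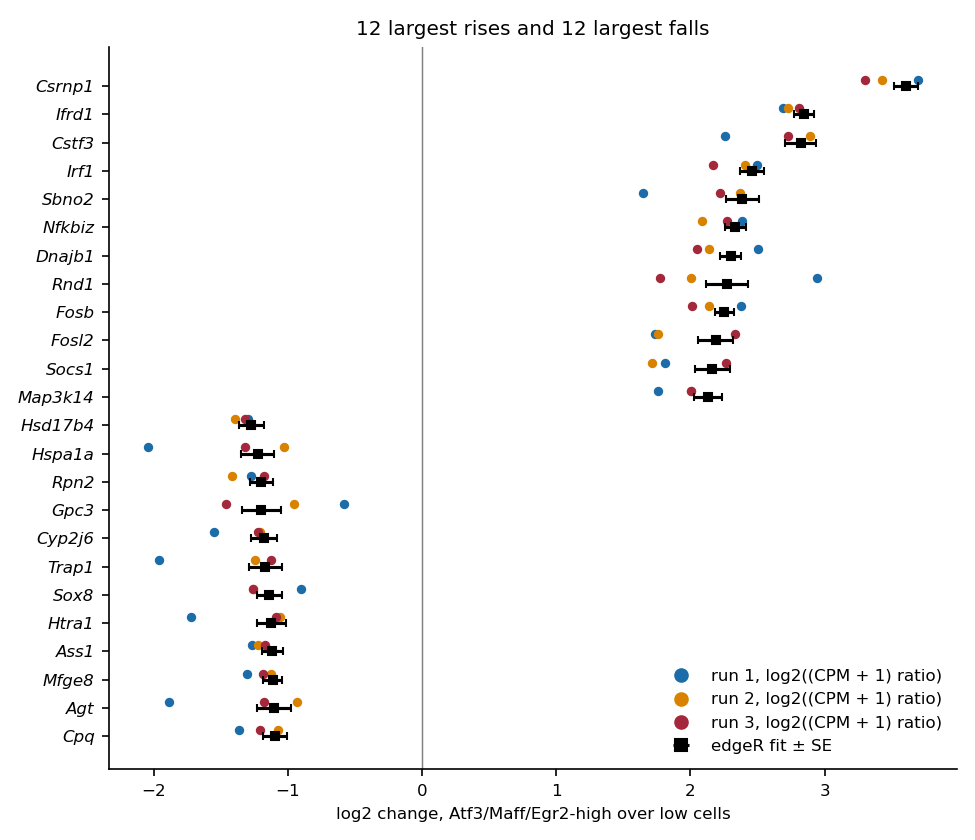
Log2 differences, members over Atf3/Maff/Egr2-low cells (x axis), of the 12 largest rises and 12 largest falls (y axis). Squares with bars are the edgeR fit and its SE, and circles are the ratio of CPM + 1 in each run. Csrnp1 leads the rises at 3.61 and Hsd17b4 leads the falls at -1.27.

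Genes that feed back on ERK signalling moved in part. Of 21 tested, 7 were higher, none lower and 14 did not pass, with a median of 0.36. Among all genes tested, 11.8% were higher and 13.0% lower. Dusp8 and Dusp1, MAP kinase phosphatases, rose by 1.58 and 1.19, Errfi1, an inhibitor of EGFR family receptors, by 1.21 and Spry2 by 0.99. Dusp6 and Spry4, also classical ERK-induced feedback genes, were at 0.16 and 0.70 and did not pass, as were Etv4 and Etv5, at -0.41 and -0.13. Of 10 genes of the EGF receptor family and its ligands, Hbegf alone passed, at 138, 80.6 and 159 CPM in members and 46.4, 50.2 and 66.3 in low cells (log2 1.21).

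Of 15 genes of gp130 signalling, the shared receptor chain for the IL-6 family, 12 were higher and 3 did not pass, with a median of 0.63. Socs3, the feedback inhibitor of gp130, stood at 1184, 798 and 740 CPM in members and 234, 282 and 314 in low cells (log2 1.75). Socs1 rose by 2.16, the ligand Lif by 1.41 and Stat3 by 0.83. Of 21 NF-kB and chemokine genes, 14 were higher, 2 were lower and 5 did not pass, with a median of 0.97. Nfkbiz, an inducible nuclear IkB protein, was at 365, 355 and 387 CPM against 69.1, 83.1 and 79.4 (log2 2.33). Nfkbia rose by 2.13, Tnfaip3 by 2.48, Cebpb by 1.83 and Map3k14, the NF-kB inducing kinase, by 2.13. Tnfaip3 missed a limit on adjusted p, level or run direction used to name the largest rises. Vcam1 and Cxcl12 fell, by 0.80 and 0.62. The core subunits Nfkb1, Nfkb2 and Relb did not pass, at 0.24, -0.25 and 0.25.

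Irf1, an interferon regulatory factor, stood at 107, 213 and 144 CPM in members and 18.2, 39.4 and 31.2 in low cells (log2 2.46). The interferon-response list did not show that rise: of 19 tested, 2 were higher, 1 lower and 16 did not pass, with a median of -0.02. For comparison, 11.8% of all genes tested were higher and 13.0% lower. Ifit1 was at 0.25 and Isg15 at 0.32, and neither passed.

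Genes of the small MAF proteins and of NRF2 and its targets were mixed. Of 19 small MAF and NRF2 genes, 6 were higher, 5 lower and 8 did not pass, with a median of 0.14. The medians of the unscaled CPM + 1 ratios were -0.11, -0.11 and -0.02 in runs 1, 2 and 3, so the list had no clear direction. Mafk, a second small MAF, stood at 54.5, 44.3 and 55.0 CPM in members and at 12.2, 11.7 and 15.5 in low cells (log2 2.01), and Mafg, the third, rose by 0.72. Srxn1 and Hmox1, both oxidative stress genes, rose by 1.51 and 1.07. Nfe2l2 itself, which encodes NRF2, fell by 0.27, and Nqo1 and Gclm, textbook NRF2 targets, were at -0.36 and -0.11 and did not pass.

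ATF3 is a known effector of the integrated stress response, whose genes split. Of 23 tested, 4 were higher, 7 lower and 12 did not pass, with a median of -0.29. The background over all genes tested was 11.8% higher and 13.0% lower. The death-linked factor Ddit3 rose from 75.2, 85.7 and 101 CPM in low cells to 200, 245 and 297 in members of runs 1, 2 and 3 (log2 1.60). Ppp1r15a, a subunit of the eIF2alpha phosphatase, rose by 1.27 and Atf4 by 0.63. The amino acid synthesis genes Asns and Phgdh fell by 1.26 and 1.09, and Trib3, Chac1 and Hspa5 did not pass, at -0.35, -0.40 and 0.06. Of 18 heat shock genes tested, 1 was higher, 7 lower and 10 did not pass, with a median of -0.19. The one that rose was Dnajb1, an HSP40 co-chaperone, at 596, 960 and 1176 CPM against 104, 217 and 283 (a fitted 4.93-fold). Hspa1a, the inducible HSP70, fell from 277, 448 and 399 CPM to 66.6, 219 and 159 (log2 -1.22). That call was lost in the cells of the authors' log table (log2 -0.083) and with Egr2 alone as the rule (log2 -0.15), and the difference was -0.56 with few rod transcripts and -1.98 with a limit of 20 per 10,000 in the rule. Reads of Hspa1a and its near-identical copy Hspa1b (-0.84) may be shared, so the pair is uncertain one by one.

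A list of genes known to be induced while tissue is dissociated overlaps the early gene and heat shock lists. Of 48 tested, 34 were higher, 7 lower and 7 did not pass, with a median of 1.02. Its early genes mostly rose, and its heat shock genes other than Dnajb1 fell or did not pass. Induction before and during dissociation cannot be told apart in these runs, which all passed through the same sort.

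Since every sorted cell carried the Yap5SA allele, YAP targets were examined. Of 26 tested, 8 were higher, 2 lower and 16 did not pass, with a median of 0.22. The background over all genes tested was 11.8% higher and 13.0% lower. Cyr61, a matricellular protein, stood at 2432, 2177 and 2429 CPM in members and 1222, 1182 and 1361 in low cells (log2 0.98). Ankrd1 (2.37), Amotl2 (1.27) and Nuak2 (0.78) rose, while Ctgf fell by 0.61 and Axl, Ajuba and Myof, at -0.03, 0.02 and -0.01, did not pass. Ankrd1 missed a limit on adjusted p, level or run direction used to name the largest rises, so its size is less certain. Yap1, whose UMIs were not split here between the native gene and the transgene, was at -0.00 (adjusted p = 0.996). Of 28 genes of the actomyosin cytoskeleton tested, 15 were higher, 2 lower and 11 did not pass, with a median of 0.40. Zyx, a focal adhesion protein, was at 90.8, 105 and 155 CPM against 37.5, 34.9 and 35.7 (log2 1.85), and Lmna, a nuclear lamin, rose by 1.64. Actb rose by 0.62. Rnd1, a GTPase that opposes RhoA, rose by 2.27.

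The differentiated programme of Müller glia was lower in members. Of 29 identity genes tested, 17 were lower, 5 higher and 7 did not pass, with a median of -0.27. Clu, a secreted chaperone, stood at 3561, 3370 and 2884 CPM in members and 7619, 6231 and 6942 in low cells (adjusted p = 2.28e-07). Rlbp1 was at 871, 988 and 1146 CPM against 1855, 1738 and 2092 (log2 -0.83), and Crym fell by 0.73. Apoe fell by 0.33, and Vim by 0.58. Sox9, a glial factor, rose by 0.71, as did Id3, by 0.77, and Timp3, by 1.27. Glul was at 0.03 (adjusted p = 0.850) and changed sign under 8 of the alternatives.

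Reactive gliosis genes did not move as one. Of 23 tested, 9 were higher, 2 lower and 12 did not pass, with a median of 0.34. Among all genes tested, 11.8% were higher and 13.0% lower. Gfap passed at 0.39 (adjusted p = 0.00115), higher in 3 of 3 runs, with 1333, 929 and 684 CPM in members against 969, 708 and 640 in low cells, so the classes overlap across runs. Lcn2 rose by 1.17 and Edn2 by 1.77, and Serpina3n and C4b did not pass, at 0.41 and 0.22.

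**Figure D5:**
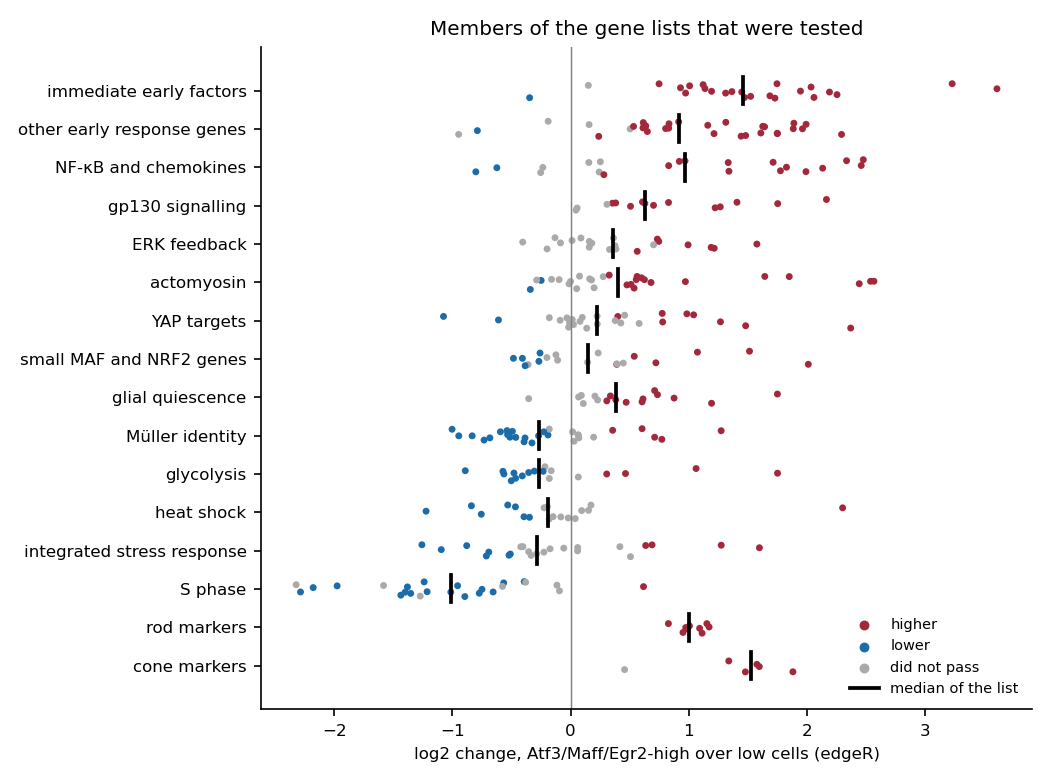
Log2 differences, members over Atf3/Maff/Egr2-low cells (x axis), of the tested genes of 16 lists (y axis). Each point is a gene, red where higher, blue where lower and grey where it did not pass, and black bars are list medians. The medians run from 1.53 for cone markers and 1.46 for immediate early factors to -1.01 for S phase genes, against 0.02 over all genes tested.

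Among the 12 largest falls by rule, Hsd17b4, an enzyme of peroxisomal beta-oxidation, was at 28.7, 25.8 and 27.4 CPM in members and 72.2, 69.3 and 70.0 in low cells (log2 -1.27, adjusted p = 7.71e-07). Mfge8, a bridge for engulfment of dying cells, was at 343, 274 and 274 CPM against 848, 599 and 622 (log2 -1.11). Htra1, a secreted serine protease, Ass1, of arginine synthesis, and Sox8, a glial SOX factor, fell by 1.12, 1.12 and 1.14. Rpn2, a subunit of the oligosaccharyltransferase, Gpc3, Cyp2j6, Trap1, Agt and Cpq fell by 1.10 to 1.20. In all 12, every run of the members lay below every run of the low cells, which in either direction held for 35.7% of the genes tested.

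Of 25 S phase genes tested, 17 were lower, 1 higher and 7 did not pass, with a median of -1.01. Levels were low in both classes: Rpa2, a single-strand DNA binding subunit, was at 15.1, 18.9 and 18.9 CPM in members and 34.1, 28.5 and 37.7 in low cells (log2 -0.77). Of 25 genes of G2 and M phase, 10 were lower and 15 did not pass, with a median of -0.86. That fall was uneven: the medians of the unscaled CPM + 1 ratios were -0.43, -0.08 and -1.09 in runs 1, 2 and 3. Without cells that had a UMI of a cycle gene, the S phase median was -0.31, and without run 3 it was -0.58. Ccnd1, cyclin D1, fell by 0.57 and Cdkn1a, the p21 inhibitor, rose by 1.01. Of 17 genes linked to glial quiescence, 11 were higher, 6 did not pass and none was lower, with a median of 0.38. Members of that list that are also on other lists include Btg2, Klf4, Klf9 and Sox9.

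Of 18 glycolysis genes, 10 were lower, 4 higher and 4 did not pass, with a median of -0.27. Eno1 was at 2178, 1044 and 2152 CPM in members and 3163, 1650 and 3635 in low cells (log2 -0.57), lower in 3 of 3 runs while the levels of the classes overlap across runs. Pfkfb3 and Hk2, 2 inducible steps, rose by 1.75 and 1.06. Of 18 cholesterol synthesis genes, 7 were lower, 2 higher and 9 did not pass. Of 17 progenitor and neurogenic genes, 3 were higher (Neurod1, Insm1 and Otx2, all also expressed by photoreceptors or bipolar cells), 5 lower and 9 did not pass. For comparison, 11.8% of all genes tested were higher and 13.0% lower. Rax, Six6 and Sox2 fell by 0.45, 0.48 and 0.46.

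A second set of cells without Igfbp2 was high in the chemokine Ccl2 (at least 10 per 10,000) and had under 12 per 10,000 of the rule's sum. It held 4, 492 and 17 cells in runs 1, 2 and 3, so it rests on run 2. Of 9888 genes tested, 882 (8.92%) were higher and 564 (5.70%) lower in the members, and the median over all genes tested was 0.13, a shift that the values below include. The runs of the classes did not overlap for 26.8% of them. Without run 2, 1 gene was higher and 3 were lower by edgeR's quasi-likelihood test, and without run 3, 517 were higher. DESeq2 called 139 higher and 130 lower.

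The 8 largest falls by rule were Ccl7, Trim47, Angptl4, Gbp6.1, Gbp2, Tap1, Gch1 and Ifit2. In run 2, Ccl7, a chemokine gene next to Ccl2, was at 23.3 CPM in members and 1872 in Ccl2-high cells (log2 -5.70), and the rule's limit on Ccl2 bears on this neighbour. Gbp2, an interferon-induced GTPase, was at 66.3 and 1992 CPM in run 2 (log2 -3.69), and Tap1, a peptide transporter for MHC class I, had a log2 difference of -3.62. Gch1 and Ifit2 fell by 3.29 and 3.21. The members had more of the antiproliferative Btg2, at 2966 CPM against 429 in run 2 (log2 2.63). Arl4d was at 134 CPM in members against 12.4 in run 2 (log2 3.43). In runs 1 and 3 it was at 90.8 and 69.5 CPM against 32.7 and 5.56, the latter from only 4 and 17 Ccl2-high cells. Cstf3 and Map3k14 were at 200 and 56.8 CPM in run 2 against 24.7 and 8.78. Nfatc2 and the Notch target Hes5 were higher too, at 29.9 and 112 CPM in run 2 against 0.298 and 6.70. No UMI of either was present in the 4 Ccl2-high cells of run 1, and none of Hes5 in the 17 of run 3, nor of Cstf3 in run 1 and Map3k14 in run 3, so no fold is given for these 4. Cstf3 and Map3k14 were thus higher in the members than in both other classes, in comparisons that share the members.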

How the data were processed

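Single cells sorted for tdTomato were profiled in 3 10X runs of 7670, 8802 and 8223 cells. The authors' deposited table holds whole-number UMI counts for 18478 genes, made by the authors on mm10 with an unstated version of Cell Ranger per the submitters' processing notes; the annotation is not given in the sources used here. The authors also deposited natural log values, made with Seurat 2.3.4 per the same notes, for 13511 of the cells (54.7%); these equalled ln(1 + 10000 × count / cell total) to within 5.00e-07 and served only to mark cells for an alternative. The members and the gene lists were chosen with earlier results of these data known.

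The rule was applied to the counts of all cells with no other filter; 7 members had over 20% mitochondrial UMIs and none had under 500 genes. Within each run, the UMIs of a class were added up per gene, low counts were removed with filterByExpr, and edgeR 4.0.16 (R 4.3.3) fitted a quasi-likelihood model with TMM scaling and the run as a block, with Benjamini-Hochberg adjustment over all genes tested. Atf3, Maff, Egr2, Igfbp2, Ccl2, the C1q genes, Nr4a1, Arc and Dusp5 took no test. Fold changes are from the model and CPM are unscaled. The scripts were tested on simulated data. The run is a shared library for both classes: deviations from class means correlated at 0.305, 0.387 and 0.311 for classes of the same run and at -0.329 to -0.0685 for different runs.

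Genes were named by rule: the 12 largest rises (log2 at least 1) and falls (at most -0.5) with adjusted p under 0.05, an average of 20 CPM or more and no run in the opposite direction, 8 each way in the comparison with Ccl2-high cells, up to 4 genes with the lowest adjusted p per list, and a short set of early and glial genes. Other list members were named after their values were seen. Positions are from GENCODE M21 on mm10. Alternatives were DESeq2 1.42.0, other scalings and filters, other limits of the rule, each gene of the rule alone, thinned or split UMIs, cells without cycle transcripts and each run left out; a filter on cell quality and one on rod transcripts were added after seeing the data. Values of 2 genes of the lists are not reported here.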

Additional observations from a re-analysis of the deposited data

How the results depend on the processing

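The runs are 3 libraries of 1 group, and the members of run 1 are 81 cells, which limits the low-count genes most. The comparison with low cells gave 1562 higher and 1712 lower genes. These counts were 756 and 1033 with DESeq2, 798 and 1101 with no replicate block, 973 and 1110 after thinning to 3500 UMIs, 241 and 374 in the cells of the authors' log table, 699 and 852 with rod transcripts under 10 per 10,000, and 534 and 695 with Egr2 alone as the rule; leaving out a run gave 837 to 1360 and 1087 to 1709. With the rule on one part of the UMIs, 1063 were higher, and 1251 lower. The comparison with Ccl2-high cells gave 882 and 564. These were 139 and 130 with DESeq2, 1586 and 1097 with no replicate block, 292 and 251 thinned, 514 and 340 with the rule on one part of the UMIs, 60 and 109 in the log-table cells, 341 and 253 with few rod transcripts, and 532 higher without cycling cells; leaving out a run gave 1 to 923 and 3 to 1029, and at an unadjusted p under 0.05 247 and 242 genes passed without run 2. The cause of these shifts was not tested, apart from the fewer cells and runs that some settings hold by construction. The mean share over runs was 14.1% with a limit of 8, 6.77% with a limit of 20, 9.80% after thinning and 4.22% of the log-table cells.

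Of the named genes' values under an alternative in the comparison with low cells, 2085 kept direction and side of the threshold, 126 lost the call, 17 gained it and 38 changed sign. Glul ranged from -0.13 to 0.14 on leaving out a run and was -0.037 with a limit of 8, -0.025 thinned, -0.0052 with the rule on one part of the UMIs, -0.74 in the log-table cells, -0.14 with few rod transcripts, -0.14 with Atf3 alone and -0.19 with Egr2 alone. Yap1 ranged from -0.11 to 0.14 on leaving out a run and was 0.0086 with DESeq2, 0.052 with no replicate block, 0.015 with a limit of 8, 0.0071 with a limit of 20, 0.042 in the log-table cells, 0.032 with Atf3 alone, 0.10 with Maff alone and 0.10 with Egr2 alone. Gfap was -0.061 with Egr2 alone. Btc ranged from -0.098 to 0.30 on leaving out a run and was -0.16 with the rule on one part, -0.30 in the log-table cells and -0.094 with few rod transcripts, and Egfr was 0.065 with the rule on one part and 0.017 with few rod transcripts. Cenpa ranged from -0.50 to 0.20 and was 0.21 thinned, 0.17 in the log-table cells, 0.17 without cycling cells and 0.013 with Atf3 alone. Birc5 was 0.041 and Smc4 0.062 without cycling cells. Hmgb2 ranged from -0.10 (without run 2) to 0.44, and Stat2 from -0.14 (without run 3) to 0.76. Hey2 and Rbpj were -0.24 and -0.13 in the log-table cells, and Cxcl14 was 0.013 without cycling cells and 0.13 with few rod transcripts. Of these, only Glul in the log-table cells was below an adjusted p of 0.05. In the comparison with low cells, the call was lost most often in the cells of the authors' log table, for 38 of the named genes. With Egr2 alone as the rule it was lost for 16, and with no replicate block for 14.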

Other observations

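Cells that carried the same early genes but were left out for Igfbp2, an insulin-like growth factor binding protein, were few. Their number was 16, 34 and 214 in runs 1, 2 and 3. In these cells Nr4a1 stood at 240, 249 and 306 CPM, against 16.1, 25.6 and 44.4 in 2016, 1780 and 1094 Igfbp2-carrying cells with a sum under 2. Dusp5 stood at 214, 145 and 258 CPM against 22.3, 25.2 and 40.4. Arc stood at 75.7, 68.5 and 82.7 CPM against 4.68, 9.32 and 9.46. The cells with a high sum lay above the others in each run for all 3 genes. The difference was not tested.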
